A study of Mus musculus with 27 samples.

Results

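Cdx1, Cdx2 and Cdx4, the 3 caudal-type homeobox genes of the mouse, were followed in all 27 libraries of a series on the STAR family, whose members bind RNA, in early development. They were chosen by symbol: of the 51826 gene identifiers in the count tables, 3 matched a Cdx gene of the GENCODE M21 annotation. RNA came from mouse embryonic stem cells of the E14 line and from a pair of lines of that background, labelled Quaking KO (gene Qk) and Sam68 KO (gene Khdrbs1). Each line was sampled undifferentiated (day 0) and at days 3 and 10 as embryoid bodies, which are floating aggregates in which stem cells differentiate, with 3 biological replicates in each of the 9 groups. The knockouts are represented by 1 line each, so an effect of the knockout and a difference between lines cannot be told apart. The labels name no Cre, transgene or drug treatment.

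CDX proteins are transcription factors related to Drosophila caudal. In the mouse embryo they are made at the posterior end, in the primitive streak and the tail bud, where they act downstream of Wnt, FGF and retinoic acid signals and upstream of Hox genes, which give axial position. CDX2 is also made in the trophectoderm, the outer layer of the blastocyst, and in the intestinal epithelium, where CDX1 is its partner. CDX4 is known for its part in axial elongation and in early blood formation. In stem cells the Cdx genes are held down by Polycomb complexes, and OCT4, the product of Pou5f1, opposes Cdx2.

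Promoter windows of 300 bases (250 before and 50 after the start) were read for Cdx2 and Cdx4 from RefSeq, build GRCm38.p6. They are shown because these 2 promoters share an octamer, the 8 letters read by POU factors such as OCT4. The promoter source held no entry for Cdx1, so its promoter was not searched. The Cdx2 window is chr5:147307200-147307499 on the minus strand and the Cdx4 window is chrX:103321148-103321447 on the plus strand, both printed along the gene's strand with the octamer in capitals.

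Cdx2: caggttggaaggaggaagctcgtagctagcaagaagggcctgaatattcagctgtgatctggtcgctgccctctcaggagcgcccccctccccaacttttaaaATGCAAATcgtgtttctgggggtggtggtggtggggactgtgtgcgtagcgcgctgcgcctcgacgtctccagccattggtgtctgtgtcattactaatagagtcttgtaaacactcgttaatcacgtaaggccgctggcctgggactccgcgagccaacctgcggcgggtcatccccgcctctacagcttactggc

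Cdx4: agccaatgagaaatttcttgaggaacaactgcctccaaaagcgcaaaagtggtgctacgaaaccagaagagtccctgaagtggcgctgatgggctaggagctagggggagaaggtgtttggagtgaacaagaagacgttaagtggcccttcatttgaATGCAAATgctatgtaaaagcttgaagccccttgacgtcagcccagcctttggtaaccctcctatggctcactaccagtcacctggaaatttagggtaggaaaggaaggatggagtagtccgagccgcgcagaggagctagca

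The octamer ATGCAAAT stood at position -147 from the start of Cdx2 and at -93 from that of Cdx4, on the strand of the gene in each. It was searched on both strands and chosen after the sequences had been read, and it was present in 474 of 27025 promoters of the table (1.75%). Neither window held the TCF/LEF letters CTTTGAA, present in 5.27% of promoters, nor the CDX letters TTTATG, present in 12.1%, or TTTATT, present in 5395 of the 27025. In the annotated 3' UTRs, which were searched because Quaking and Sam68 bind RNA, no ACTAAC or ACTAAT, the core letters bound by Quaking, was found in the 864 bases of Cdx1, the 1037 of Cdx2 or the 952 of Cdx4. Among 3' UTRs at least as long, cut to the same length, 25.3%, 29.5% and 27.6% held one. The Sam68-type letters TTTAAA occurred at 2 places in the 3' UTR of Cdx1, at 1 in that of Cdx2 and at none in that of Cdx4, and 54.8%, 60.9% and 58.0% of 3' UTRs cut to those lengths held them. The letters ATAAA occurred at 1, 2 and 1 places, and 68.3%, 74.1% and 71.6% held them. A match of letters is a description and not a binding site.

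All 3 genes are protein-coding, and no other annotated gene overlaps any of them on GRCm38. Cdx1 (ENSMUSG00000024619) lies on the minus strand of chromosome 18, from 61018862 to 61036199. Cdx2 (ENSMUSG00000029646) lies on the minus strand of chromosome 5, from 147300805 to 147307270. Cdx4 (ENSMUSG00000031326) lies on the plus strand of chromosome X, from 103321398 to 103330592.

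The libraries held between 56461674 and 77257496 counts. Qk was lower in Quaking KO on each day, with log2 fold changes of -0.58 ± 0.04 (SE; adjusted p = 1.85e-09) at day 0, -0.95 ± 0.05 (adjusted p = 2.79e-09) at day 3 and -0.41 ± 0.06 (adjusted p = 0.00232) at day 10 by edgeR's quasi-likelihood test. The Qk transcript was not lost: the mean was 159 CPM (counts per 1000000 counts) against 235 in wild type at day 0, 117 against 226 at day 3 and 204 against 267 at day 10. Khdrbs1 was not lost in the libraries labelled Sam68 KO either: it stood at 92.3 ± 4.49 CPM (SD, n = 3) against 99.0 ± 1.51 in wild type at day 0, and at 97.3 ± 7.31 against 159 ± 7.24 at day 3. Khdrbs1 was lower at day 3 (-0.70 ± 0.06, adjusted p = 1.15e-07, edgeR) but its change of -0.03 ± 0.04 in stem cells (adjusted p = 0.576) and of -0.25 ± 0.13 at day 10 (adjusted p = 0.132) did not pass the threshold of 0.05. Counts per gene do not measure protein, so they can neither bear out nor refute either KO label. Because Khdrbs1 was not called lower on all days, the line labelled Sam68 KO is called Sam68-labelled throughout. The name is no verdict on the knockout. In the labels' sample descriptions the library numbers of this line form a range of their own. What the number marks is not given, and it cannot be told apart from the label. The stem cell markers fixed for the series, 8 of 8 with counts in every group, summed to between 3156 and 5303 CPM in the day 0 libraries and to between 123 and 192 CPM at day 10. Replicate 1 stood apart at day 3 in wild type and in Quaking KO, where the mitochondrial ribosomal RNA mt-Rnr2 took 9.53% and 11.0% of counts against 5.64% to 6.54% in the other 4 libraries. In the 3 Sam68-labelled libraries of day 3 it took 10.6% to 11.1%.

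In wild type, Cdx2 rose through differentiation while Cdx1 and Cdx4 ended lower than they began. Cdx2 was at 1.01, 0.830 and 0.997 CPM in the libraries of day 0. It reached 4.55, 7.53 and 6.11 CPM at day 3 and 10.01, 10.6 and 12.03 CPM at day 10. The ranges of the 3 days did not overlap. The rise was 2.71 ± 0.19 (log2 fold change ± SE; adjusted p = 2.8e-08) from day 0 to day 3 and 0.85 ± 0.15 (adjusted p = 0.000149) from day 3 to day 10. Of the genes tested, 60.9% were called, at an adjusted p under 0.05, in the first step and 76.1% in the second, so a call alone does not mark a gene out. A rise or fall of at least 4-fold, which Cdx2 showed in the first step, was called for 13.8%. In these aggregates, more cells of a type and more RNA per cell cannot be told apart.

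Cdx1 took another course. Its wild-type libraries held 0.962, 0.797 and 0.931 CPM at day 0, then 0.676, 1.62 and 1.21 CPM at day 3, and 0.122, 0.208 and 0.231 CPM at day 10. Day 3 overlapped day 0, and replicate 1 lay below all the day 0 libraries. The first step was 0.42 ± 0.27 (adjusted p = 0.211, edgeR), and without replicate 1 of day 3 it was 0.69 (adjusted p = 0.0206). From day 3 to day 10 Cdx1 fell by 2.62 ± 0.33 on the log2 scale (adjusted p = 8.36e-06), with no overlap between the days.

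Cdx4 was close to the limit of detection in every library. Its raw counts in wild type were 15, 13 and 11 at day 0, then 4, 11 and 7 at day 3, and 2, 4 and 3 at day 10. Scaled to CPM the ranges of the days did not overlap, and the means were 0.213 ± 0.0345, 0.109 ± 0.0499 and 0.0393 ± 0.0125 (SD, n = 3). edgeR called the first fall (-0.92 ± 0.37, adjusted p = 0.0451) and the second (-1.42 ± 0.49, adjusted p = 0.0183), so all 3 members were called in at least 1 step. Neither Cdx4 call held with DESeq2, which gave adjusted p = 0.216 and 0.0974. Leaving out 1 library ended the first call for every library but replicate 2 of day 3 (adjusted p = 0.0569 to 0.171), and the second without replicate 1 of day 10 (adjusted p = 0.0621) or replicate 2 of day 3 (adjusted p = 0.124).

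**Figure D1:**
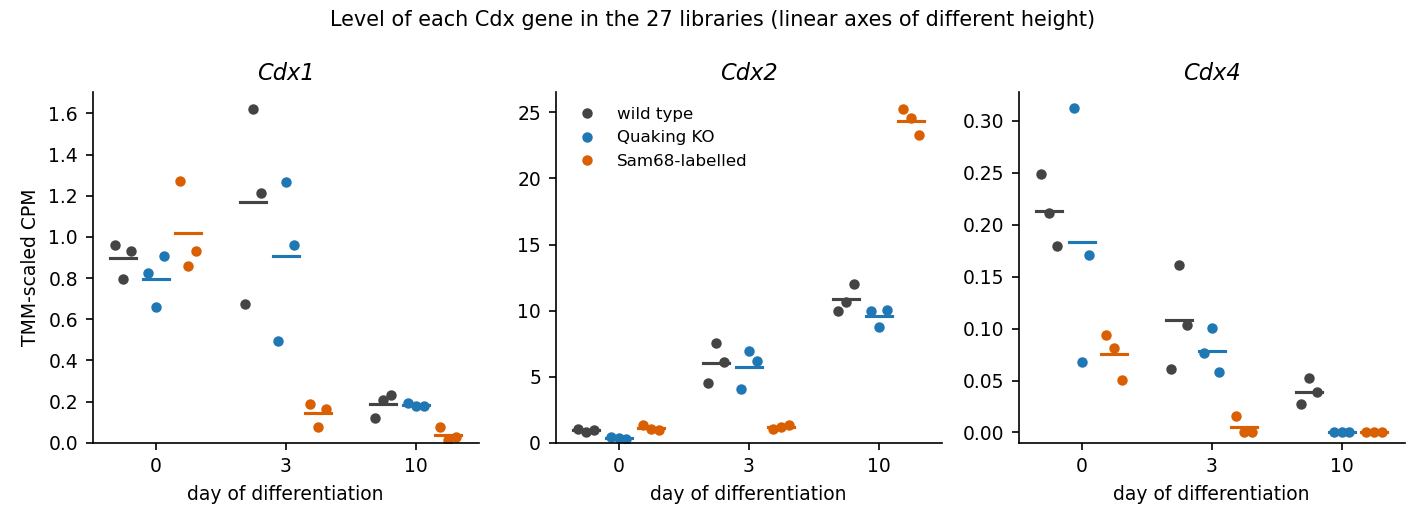
TMM-scaled CPM (vertical axis, linear, with its own height in each panel) of Cdx1, Cdx2 and Cdx4 by day of differentiation; points are libraries and bars are means of 3. Cdx2 reaches 23.3 to 25.3 CPM in the Sam68-labelled libraries of day 10, and Cdx4 has no count in either KO line on that day.

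The makeup of the family differed between the days. Per length of its annotated exons, Cdx1 made up 49.3% of the family level in wild type at day 0 (48.91% to 49.99% over 3 libraries), Cdx2 40.2% and Cdx4 10.5%. At day 3 Cdx2 made up 79.3% (76.7% to 82.8%), and at day 10 it made up 97.5% (97.0% to 98.1%). The summed level was 1.04 ± 0.0989 RPKM (CPM per kilobase of exon, SD, n = 3) at day 0, 3.40 ± 0.956 at day 3 and 4.94 ± 0.488 at day 10. Quaking KO had the lowest Cdx2 share at day 0, 22.3% (17.5% to 26.7%), which did not overlap wild type. The Sam68-labelled line had the highest at day 10, 99.8% (99.6% to 99.9%).

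**Figure D2:**
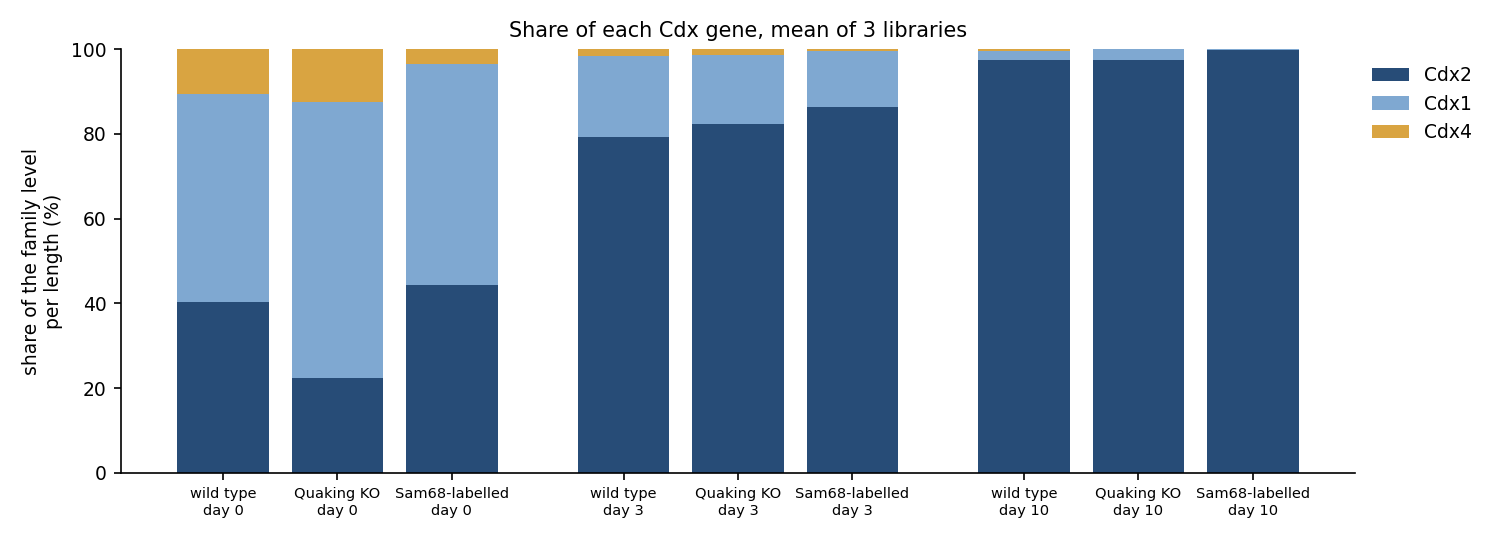
Share of Cdx1, Cdx2 and Cdx4 in the family level per length (vertical axis, percent, mean of 3 libraries) in the 9 groups. Cdx1 leads at day 0, with 49.3% in wild type, and Cdx2 makes up at least 97.46% of each mean at day 10.

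Most other genes of the posterior embryo rose in the same step as Cdx2. Of 16 caudal epiblast and presomitic genes other than Cdx genes, 14 were tested in wild type, and 11 rose and 1 fell from day 0 to day 3. Their median log2 fold change was 4.74, against 0.01 over all genes. Of all genes tested, 60.9% were called in this step and 76.1% in the step from day 3 to day 10. T, the brachyury factor of the primitive streak, went from 0.466 ± 0.229 CPM (SD, n = 3) to 268 ± 62.6. The Wnt target Sp5 went from 1.91 ± 0.320 to 42.3 ± 10.9 CPM, and the retinoic acid-degrading enzyme Cyp26a1 from 0.590 ± 0.127 to 18.3 ± 6.39. From day 3 to day 10, 10 of these 14 fell and 3 rose, while Cdx2 rose further. Of the 39 Hox genes listed, 36 were tested in wild type. Of these, 7 rose and 8 fell in the first step, and 33 rose and 1 fell in the second, with a median of 4.53. The fits by day tested 9 Hox genes at day 0, 15 at day 3 and 36 at day 10. Many thus passed the filter on low counts only through day 10, so their rise to that day is partly set by the filter.

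Cdx2 was lower in Quaking KO than in wild type before differentiation. The Quaking KO libraries of day 0 held 0.422, 0.338 and 0.291 CPM, all below the lowest wild-type library at 0.830. The log2 fold change was -1.45 ± 0.22 (adjusted p = 3.24e-05, edgeR), a level 2.72-fold lower. Cdx1 was at 0.827, 0.658 and 0.906 CPM, and Cdx4 at 17, 4 and 10 counts, and both overlapped wild type. Their log2 fold changes were -0.18 ± 0.19 (adjusted p = 0.493) and -0.25 ± 0.40 (adjusted p = 0.667), with 95% intervals from -0.56 to 0.20 and from -1.04 to 0.54. Thus 1 of 3 members was called, where 39.7% of the 19841 genes tested were.

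Wnt components differed in both directions in the same Quaking KO stem cells. Of 10 Wnt and retinoic acid receptors and effectors, 4 were higher (Fzd10, Tcf7l1, Ctnnb1 and Rara), 2 lower (Lef1 and Rarg) and 4 not called, with a median of 0.00. Lef1, a transcription factor that carries the Wnt signal in the nucleus, was at 1.06 ± 0.177 CPM against 4.44 ± 0.613 in wild type (SD, n = 3), a log2 fold change of -2.07 ± 0.13 (adjusted p = 3.92e-10, edgeR). Among the ligands, Wnt8a changed by -2.40 ± 0.37 on that scale (adjusted p = 4.01e-05) and Wnt3 by -1.16 ± 0.21 (adjusted p = 0.000214), while Wnt3a was higher by 0.61 ± 0.18 (adjusted p = 0.00963; adjusted p = 0.0636 without wild type replicate 2). Of 12 posterior signals, 3 were lower, 2 higher and 7 not called, with a median of -0.16, so 5 of 12 were called beside 39.7% of all genes. Of the 14 caudal genes tested beside Cdx genes, 4 were lower (Sp5, Cyp26a1, Dll3 and T) and 1 higher (Wnt3a). Sp5 changed by -1.65 ± 0.18 (adjusted p = 7.13e-07) and Cyp26a1 by -1.42 ± 0.31 (adjusted p = 0.00115). T, at 0.165, 0.321 and 0.222 CPM against 0.713, 0.423 and 0.261, overlapped wild type and was not called without wild type replicate 1 (adjusted p = 0.245), Quaking KO replicate 1 (adjusted p = 0.114) or Quaking KO replicate 3 (adjusted p = 0.0803). The count of 4 became 2 with DESeq2, without Quaking KO replicate 3 or without wild type replicate 1. Gsx1, a ParaHox gene of the same homeobox class as Cdx, changed by -1.66 ± 0.24 (adjusted p = 2.13e-05).

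Known repressors of Cdx genes in stem cells were measured in the same libraries. Of 9, 4 were higher (Rnf2, Nanog, Suz12 and Pou5f1), 2 lower (Ezh2 and Jarid2) and 3 not called. Of all genes tested, 39.7% were called in this comparison. Nanog, a pluripotency factor, was higher by 0.49 ± 0.03 (adjusted p = 1.52e-10, edgeR). Rnf2, a ligase of Polycomb complex 1, was higher by 0.30 ± 0.03 (adjusted p = 2.01e-07), and Jarid2, a Polycomb complex 2 partner, changed by -0.17 ± 0.03 (adjusted p = 9.93e-05). Of 8 pluripotency genes 6 were higher and none lower. Markers of extraembryonic endoderm, a lineage that appears in small numbers in stem cell cultures, summed to 6.01 to 6.53 CPM in Quaking KO and 11.1 to 11.7 in wild type, with 5 of 5 detected. Trophoblast markers, of a lineage that uses Cdx2, summed to 0.698 to 0.844 against 1.24 to 1.39 CPM, with Tpbpa and Prl3d1 at 0. Their part in the Cdx2 difference was not tested.

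At day 3 the Cdx2 levels of Quaking KO and wild type overlapped. The Quaking KO libraries held 4.08, 6.91 and 6.17 CPM of Cdx2 and 0.492, 1.27 and 0.960 CPM of Cdx1. Replicate 1 was the lowest of both genes in both lines. The log2 fold change was -0.09 ± 0.17 for Cdx2 (adjusted p = 0.853, edgeR; 95% interval -0.43 to 0.26) and -0.37 ± 0.31 for Cdx1 (adjusted p = 0.571; -0.97 to 0.24), so neither of the 2 members tested was called, where 7.01% of genes were. Here same-numbered libraries deviated together, and with the replicate as a block the adjusted p was 0.645 for Cdx2 and 0.337 for Cdx1. Within numbers, Cdx1 was lower in Quaking KO in 3 of 3 pairs, by log2 ratios of -0.46, -0.36 and -0.34. Cdx1 moved by 0.21 ± 0.28 from day 0 to day 3 in Quaking KO (adjusted p = 0.531), and by 0.54 without replicate 1 of day 3 (adjusted p = 0.0383). Cdx2 over that step rose by 4.04 ± 0.23 (adjusted p = 2.68e-09), where 69.0% of genes were called, and the difference between this rise and that of wild type was 1.36 ± 0.39 (adjusted p = 0.0227). That difference was called for 15.9% of genes, and among the members for Cdx2 alone (Cdx1 -0.19 ± 0.42, adjusted p = 0.838; Cdx4 -0.22 ± 0.68, adjusted p = 0.89). It was lost in 4 of the 12 fits with 1 library left out: without replicate 1 (adjusted p = 0.0558) or 3 (adjusted p = 0.0505) of wild type day 0, and without replicate 2 (adjusted p = 0.0605) or 3 (adjusted p = 0.074) of Quaking KO day 0.

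The caudal genes of Quaking KO at day 3 were read both ways. Without the block, 3 of 15 tested beside the Cdx genes were lower (Nkx1-2, Dll3 and Cyp26a1) and none higher, with a median of -0.38 against 0.01 over all genes. Of all genes, 7.01% were called without the block. With the replicate block 11 of the 15 were lower. Genes called numbered 1381 without the block and 1002 to 1891 over the 7 alternative settings, which include the block. The share for the block alone is not given, so the 11 have no exact background beside them. Nkx1-2, a homeobox gene of the caudal epiblast, was at 5.72, 6.55 and 6.12 CPM against 9.34, 10.6 and 10.8 in wild type, with no overlap (-0.74 ± 0.09, adjusted p = 5.72e-05, edgeR). T was at 110, 234 and 196 CPM against 206, 332 and 268, lower within each number. Its log2 fold change of -0.58 ± 0.25 had adjusted p = 0.204, and 0.00242 with the block. Cyp26a1 changed by -1.16 ± 0.29 (adjusted p = 0.0249) and was not called without Quaking KO replicate 3 (adjusted p = 0.0555) or without wild type replicate 2 (adjusted p = 0.137) or 3 (adjusted p = 0.0736). Nor was Cyp26a1 called with DESeq2 (adjusted p = 0.108) or in a fit of the compared libraries alone (adjusted p = 0.0685). The count was 7 without Quaking KO replicate 2 and 8 without wild type replicate 1. None of the 12 posterior signals was called without the block, and with it Wnt3a was (-0.98, adjusted p = 0.0346).

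At day 10 Quaking KO again overlapped wild type in both members tested. Cdx2 was at 9.98, 8.74 and 10.1 CPM (-0.20 ± 0.08, adjusted p = 0.157, edgeR) and Cdx1 at 0.194, 0.178 and 0.181 CPM (-0.05 ± 0.37, adjusted p = 0.956). Neither was called, where 11.7% of genes were. Within Quaking KO, from day 3 to day 10 Cdx2 rose by 0.79 ± 0.15 (adjusted p = 0.000329) and Cdx1 fell by 2.25 ± 0.33 on the log2 scale (adjusted p = 3.47e-05), in a step in which 78.1% of genes were called. The difference from the wild-type step was -0.11 ± 0.26 for Cdx2 (adjusted p = 0.893) and 0.33 ± 0.60 for Cdx1 (adjusted p = 0.849), in a comparison that called 3.58% of genes. The Hox genes, which CDX proteins act upon in the embryo, were lower in part: 15 of 36 tested were lower and 3 higher, with a median of -0.72 against -0.02 over all genes. By position, 8 of 10 in groups 10 to 13, 6 of 14 in groups 5 to 9 and 1 of 12 in groups 1 to 4 were lower. The fit of Quaking KO over its own days tested 34 Hox genes, and not all of the 36. A gene that passed the filter on low counts only through wild type is bound to be lower here. Hoxa13 was at 1.92 ± 0.446 CPM against 6.99 ± 1.12 (-1.88 ± 0.19, adjusted p = 0.000309).

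In the Sam68-labelled stem cells Cdx1 and Cdx2 overlapped wild type and Cdx4 was lower. Cdx2 was at 1.35, 1.04 and 0.964 CPM (0.32 ± 0.17, adjusted p = 0.102, edgeR; 95% interval -0.02 to 0.66) and Cdx1 at 1.27, 0.859 and 0.930 CPM (0.26 ± 0.18, adjusted p = 0.196). Cdx4 had 6, 5 and 3 counts, below the lowest wild-type count of 11, and changed by -1.39 ± 0.48 (adjusted p = 0.014). It was not called without Sam68-labelled replicate 3 (adjusted p = 0.0569). So 1 of 3 members was called, where 74.4% of genes were. Cdx2 was called higher with library totals alone (0.44, adjusted p = 0.0236) and among protein-coding genes alone (0.38, adjusted p = 0.0497). In these stem cells 7 of 8 pluripotency genes were lower, with Nanog at -0.85 ± 0.03 (adjusted p = 1.69e-14), and extraembryonic endoderm markers summed to 43.4 to 44.3 CPM against 11.1 to 11.7 in wild type. Their part in the Cdx levels was not tested.

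At day 3 Cdx1 and Cdx2 were both lower in the Sam68-labelled line than in wild type. Cdx2 was at 1.08, 1.18 and 1.34 CPM, below the lowest wild-type library at 4.55. Cdx1 was at 0.190, 0.0749 and 0.165 CPM, from 12, 5 and 11 counts, below the lowest wild-type library at 0.676. The log2 fold changes were -2.32 ± 0.21 for Cdx2 (adjusted p = 1.14e-07, edgeR) and -3.01 ± 0.44 for Cdx1 (adjusted p = 1.52e-05), levels 5.005-fold and 8.07-fold lower. Both members tested were called, where 73.1% of genes were, and a fall of at least 4-fold, which both showed, was called for 6.34%. Cdx2 had not risen from day 0 in this line beyond its spread (0.09 ± 0.14, adjusted p = 0.568), and Cdx1 fell by 2.83 ± 0.32 on the log2 scale (adjusted p = 6.55e-07), in a step in which 72.9% of genes were called. The difference from the wild-type step was -2.62 ± 0.28 for Cdx2 (adjusted p = 2.91e-07) and -3.26 ± 0.44 for Cdx1 (adjusted p = 7.28e-06), and 33.8% of genes were called in it. For Cdx4 that difference was -2.55 ± 1.02 (adjusted p = 0.0598), and it was called without replicate 1 of day 3 of the Sam68-labelled line (-4.41, adjusted p = 0.0337) or of wild type (-2.84, adjusted p = 0.0352).

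**Figure D3:**
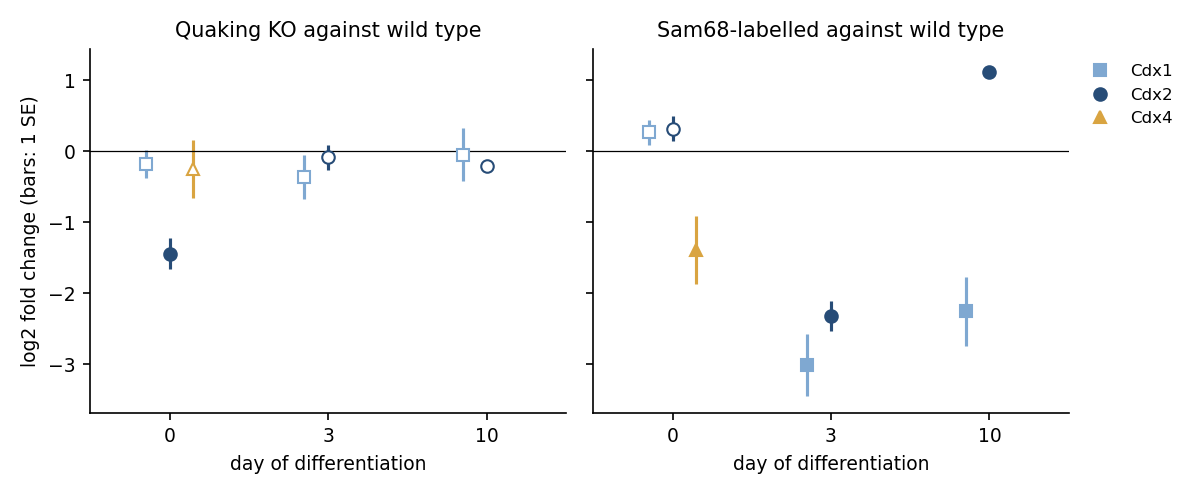
Log2 fold change against wild type (vertical axis; bars are 1 SE, hidden where smaller than the symbol) of Cdx1, Cdx2 and Cdx4 by day; filled symbols have an adjusted p under 0.05, and Cdx4 was tested at day 0 alone. Cdx2 stands at -1.45 in Quaking KO at day 0, and in the Sam68-labelled line at -2.32 at day 3 and 1.12 at day 10.

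Most of the caudal program was lower at the same time. All 15 caudal genes tested beside the Cdx genes were called, where 73.1% of all genes were, with 12 lower and 3 higher. Their median was -1.62 against 0.00 over all genes. T was at 4.78, 8.33 and 13.2 CPM, far below the lowest wild-type library at 206, and changed by -4.92 ± 0.31 (adjusted p = 2.335e-09, edgeR). Sp5 changed by -4.14 ± 0.25 (adjusted p = 1.53e-09), Mixl1, a homeobox gene of the primitive streak, by -4.11 ± 0.39 (adjusted p = 1.72e-07), and Evx1, a homeobox gene of the posterior streak, by -3.79 ± 0.22 (adjusted p = 9.34e-10). The 3 higher genes were Dll1, Hes7 and Tbx6, while Dll3 and Mesp1 were among the 12 lower. Dll3 was not called with library totals alone (adjusted p = 0.323) or among protein-coding genes alone (adjusted p = 0.186). Its call was also lost in 3 of the 6 fits with 1 library left out. Dll1, a Notch ligand, changed by 0.59 ± 0.12 (adjusted p = 0.000354) and the clock gene Hes7 by 1.76 ± 0.38 (adjusted p = 0.000604), at 0.356 ± 0.0990 CPM. Tbx6, a presomitic factor, changed by 0.59 ± 0.22 (adjusted p = 0.0272) with overlapping groups, and was not called without Sam68-labelled replicate 2 (adjusted p = 0.155), wild type replicate 2 (adjusted p = 0.0686) or wild type replicate 3 (adjusted p = 0.13), or with DESeq2 (adjusted p = 0.0787). The markers of caudal epiblast and primitive streak summed to 14.7 to 28.4 CPM, against 278 to 466 in wild type, with 6 of 7 detected and Msgn1 at 0.

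The signals upstream of Cdx genes differed in both directions. Of 12 posterior signals 7 were lower, 3 higher and 2 not called, with a median of -0.84, so 10 of 12 were called beside 73.1% of all genes. Wnt3a, the ligand of the late streak, was at 0.0859 ± 0.0332 CPM against 0.569 ± 0.255 (-2.68 ± 0.40, adjusted p = 1.85e-05, edgeR). Wnt3, which starts the streak, changed by -2.17 ± 0.11 (adjusted p = 3.22e-10), at 9.38 ± 1.20 against 42.5 ± 4.44 CPM. The ligands Wnt8a and Fgf8 changed by -1.03 ± 0.10 (adjusted p = 2.90e-07) and -0.89 ± 0.08 (adjusted p = 1.03e-07). The 3 higher were Fgf3, Fgf4 and Gdf11. The extraembryonic endoderm markers summed to 29.8 to 40.1 CPM against 16.5 to 21.9, with 5 of 5 detected, and the mt-Rnr2 share was 10.6% to 11.1% against 5.82% to 9.53%. The part of neither was tested.

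**Figure D4:**
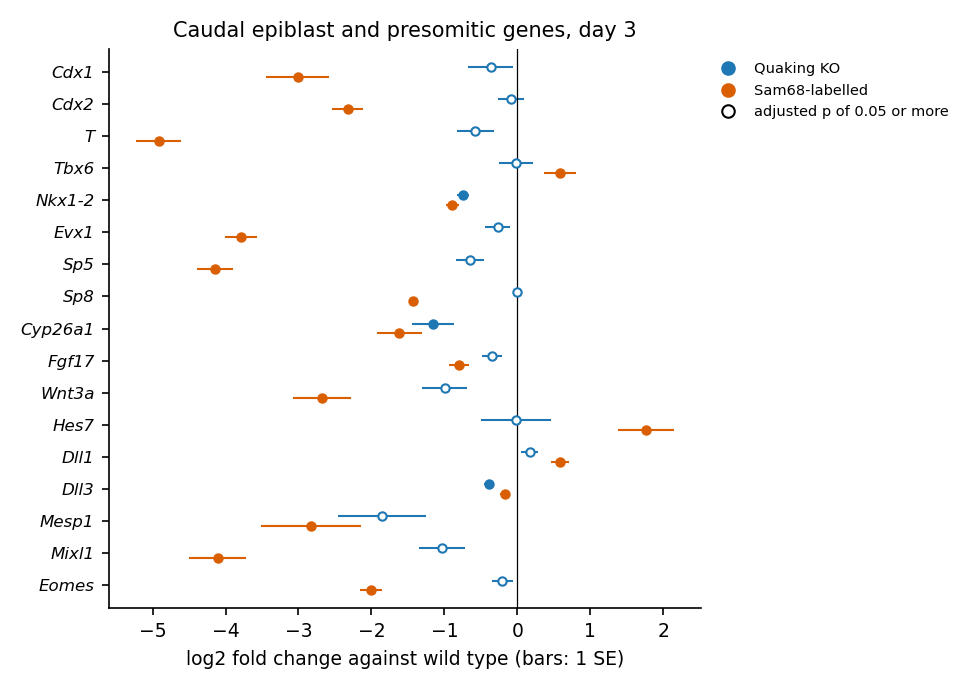
Log2 fold change against wild type at day 3 (horizontal axis; bars are 1 SE) of Cdx1, Cdx2 and 15 other caudal genes in both KO lines; open symbols have an adjusted p of 0.05 or more in the fit without a replicate block. Sam68-labelled values reach -4.92 for T, with Tbx6, Hes7 and Dll1 above 0.

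By day 10 the members had parted in the Sam68-labelled line: Cdx2 was above wild type and Cdx1 below it. Cdx2 was at 25.3, 24.6 and 23.3 CPM, all above the highest wild-type library at 12.03, while Cdx1 was at 0.0778, 0.0130 and 0.0266 CPM, from 6, 1 and 2 counts, all below the lowest wild-type library at 0.122. Cdx2 changed by 1.12 ± 0.08 (adjusted p = 1.54e-06, edgeR), a level 2.173-fold higher, and Cdx1 by -2.25 ± 0.49 (adjusted p = 0.00263). Without Sam68-labelled replicate 1, which held 6 of the 9 counts, the Cdx1 change was -3.17 (adjusted p = 0.00113). Over the 6 fits with 1 library left out it ran from -3.17 to -1.82, with adjusted p at most 0.0145. Both members tested were called, where 50.6% of genes were. From day 3 to day 10 Cdx2 rose by 4.35 ± 0.10 in this line (adjusted p = 2.23e-16) and Cdx1 fell by 1.80 ± 0.58 on the log2 scale (adjusted p = 0.00849) with ranges that overlapped (-2.73 without that replicate), in a step with 86.0% of genes called. The Cdx2 rise exceeded that of wild type by 3.52 ± 0.21 (adjusted p = 1.97e-08), in a comparison in which 54.2% were called, and the Cdx1 difference was 0.84 ± 0.93 (adjusted p = 0.467).

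Most Hox genes were lower than in wild type while Cdx2 was higher. Of 36 tested at day 10, 34 were lower in the Sam68-labelled line, Hoxc13 was higher and Hoxb9 was not called, with a median of -2.10 against -0.04 over all genes. The median was -1.85 for the 12 genes of groups 1 to 4, -1.53 for the 14 of groups 5 to 9 and -3.76 for the 10 of groups 10 to 13. The fit of this line over its own days tested 26 Hox genes, 5 of them in groups 10 to 13. A gene that passed the filter on low counts only through the other lines is bound to be lower here. The counts and medians are therefore partly set by the filter, most of all in groups 10 to 13. Hoxd8 was at 1.58 ± 0.360 CPM against 7.09 ± 0.944 (-2.21 ± 0.16, adjusted p = 1.49e-06, edgeR), and Hoxa13 at 0.533 ± 0.147 against 6.99 ± 1.12 (-3.75 ± 0.22, adjusted p = 3.62e-07). Hoxc13 was at 1.19 ± 0.121 against 0.460 ± 0.193 CPM (1.32 ± 0.26, adjusted p = 0.00128). The enzyme that makes retinoic acid, Aldh1a2, was at 1.82 ± 0.596 against 14.6 ± 2.53 CPM (-3.05 ± 0.23, adjusted p = 1.59e-06), and Cyp26a1, which breaks it down, was higher (0.72 ± 0.13, adjusted p = 0.000928). Of the 15 caudal genes tested beside the Cdx genes 7 were lower and 2 higher, T among the lower (-1.60 ± 0.37, adjusted p = 0.00386). Over all genes tested in this line on that day, 50.6% were called.

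**Figure D5:**
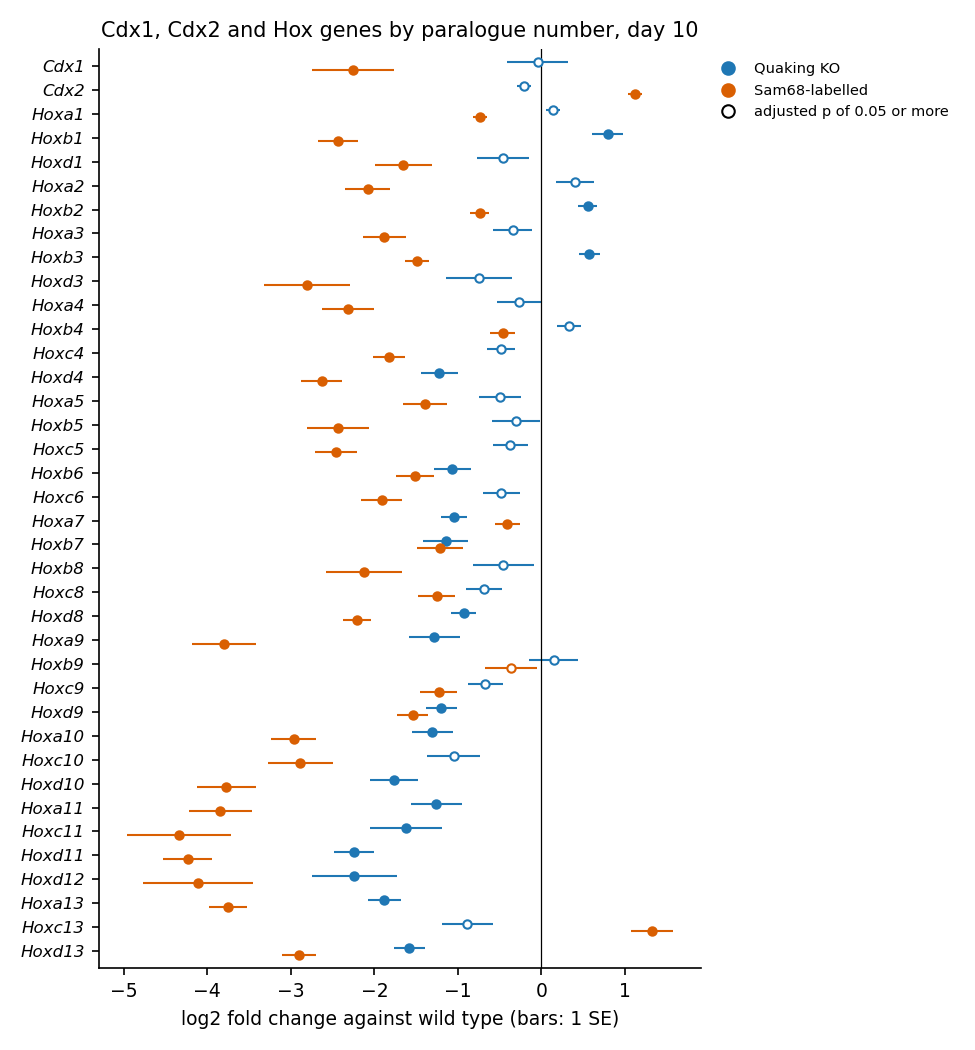
Log2 fold change against wild type at day 10 (horizontal axis; bars are 1 SE) of Cdx1, Cdx2 and 36 Hox genes ordered by paralogue number, in both KO lines; open symbols have an adjusted p of 0.05 or more. Cdx2 at 1.12 and Hoxc13 at 1.32 are the filled Sam68-labelled points above 0.

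Genes of lineages that use Cdx2 differed among themselves at day 10. Of 15 intestinal epithelium genes 11 were tested in the Sam68-labelled line, and 7 were higher, none lower and 4 not called (Lct, Cdh17, Lgals4 and Muc2). In that comparison 50.6% of all genes were called. Muc13, a membrane mucin, was at 46.8 ± 3.81 CPM against 12.6 ± 0.985 (1.85 ± 0.11, adjusted p = 4.03e-07, edgeR), and Hnf4a, a transcription factor of gut and visceral endoderm, at 111 ± 4.19 against 36.9 ± 3.73 (1.55 ± 0.09, adjusted p = 4.30e-07). The intestinal markers summed to 73.7 to 86.7 CPM against 39.1 to 42.0, with 6 of 7 detected and Sis at 0. Of those 7 markers, Cdh17, Lgals4 and Muc2 were not called, so the higher sum does not stand for every marker. Extraembryonic endoderm expresses several of the same genes, and of 12 of its genes 9 were higher and Afp lower. Its markers summed to 603 to 786 against 560 to 606 CPM, with 5 of 5 detected. The part of these cells in the Cdx2 level was not tested.

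Most trophoblast and blood genes were lower in the Sam68-labelled line on that day. Of 13 trophoblast genes tested 8 were lower and 3 higher (Tead4, Krt8 and Krt18), and the trophoblast markers summed to 4.75 to 6.81 CPM against 7.09 to 9.00, with Prl3d1 at 0. Of 10 embryonic blood genes 9 were lower, and their markers summed to 73.6 to 134 against 300 to 403 CPM. Of all genes tested, 50.6% were called in that comparison. In Quaking KO, where Cdx2 was not called at day 10, none of the intestinal genes was higher and 5 of 11 were lower, beside 11.7% of all genes called. Of the 12 extraembryonic endoderm genes 6 were lower there and none higher, Hnf4a being on both lists, and the markers of that lineage summed to 380 to 536 CPM against 560 to 606 in wild type. Their part in the intestinal count was not tested.

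Set against each other, the KO lines differed in Cdx2 on every day. The Sam68-labelled level was higher than that of Quaking KO by 1.76 ± 0.21 at day 0 (log2; adjusted p = 4.60e-07, edgeR), lower at day 3 (-2.24 ± 0.21, adjusted p = 1.79e-07) and higher at day 10 (1.32 ± 0.08, adjusted p = 3.48e-07), with no overlap on any of the 3 days. Cdx1 was lower at day 3 (-2.65 ± 0.45, adjusted p = 8.23e-05) and day 10 (-2.21 ± 0.49, adjusted p = 0.00268; -3.13 without Sam68-labelled replicate 1). All 3 members were called at day 0, where 75.9% of genes were, and both tested at days 3 and 10, where 72.1% and 56.6% were. The day 0 calls of Cdx1 (0.45 ± 0.19, adjusted p = 0.0385) and Cdx4 (-1.14 ± 0.50, adjusted p = 0.0472) rested on overlapping groups. Cdx1 was not called without Quaking KO replicate 1 (adjusted p = 0.0575) or 2 (adjusted p = 0.172) or Sam68-labelled replicate 1 (adjusted p = 0.258). Cdx4 was called in 1 of the 6 such fits, the one without Quaking KO replicate 2 (adjusted p = 0.00554).

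After day 0 Cdx4 was too low to be tested in the fits by day. At day 3 it had 5, 7 and 4 counts in Quaking KO and 1, 0 and 0 in the Sam68-labelled line, against 4, 11 and 7 in wild type. The Sam68-labelled counts lay below both other groups. The ratio of summed levels, Sam68-labelled over wild type, was 0.0465 (exact 95% interval 0.00113 to 0.288, counting error only), and that of Quaking KO over wild type was 0.719 (0.353 to 1.43). A 2-sided exact permutation test over libraries gave p = 0.1 for the first, the smallest that 3 against 3 allow, and p = 0.4 for the second. At day 10 neither KO line had a count, which allows up to 0.0135 CPM in Quaking KO and 0.0131 CPM in the Sam68-labelled line (3 counts over the 3 libraries). By that floor of 3 counts over the group, set against the 9 wild-type counts, the level was at least 2.92-fold lower in Quaking KO and at least 3.01-fold lower in the Sam68-labelled line (exact permutation p = 0.1 for each). The error of the 9 counts is not part of that floor: with it, the exact 95% interval of the ratio to wild type reached 0.521 in Quaking KO and 0.504 in the Sam68-labelled line, for counting error only.

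Ordered by mean, the groups stood apart for Cdx2 and less so for Cdx1. For Cdx2 the order ran from the Sam68-labelled line at day 10 (24.4 CPM) through wild type (10.9) and Quaking KO (9.59) at day 10, wild type (6.06) and Quaking KO (5.72) at day 3, the Sam68-labelled line at day 3 (1.20) and day 0 (1.12) and wild type at day 0 (0.946) to Quaking KO at day 0 (0.350). Neighbours whose ranges overlapped were the pairs of wild type and Quaking KO at day 10 and at day 3, and the 3 groups between 0.946 and 1.20 CPM in turn. For Cdx1 the 5 highest groups, from wild type at day 3 (1.17 CPM) to Quaking KO at day 0 (0.797), overlapped from neighbour to neighbour, and a gap without overlap separated them from wild type at day 10 (0.187).

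The nearest coding genes were measured as well. None of those that passed the filter on low counts was called between Quaking KO and wild type on any day. Of all genes, 39.7% were called at day 0, 7.01% at day 3 and 11.7% at day 10. Pdx1, the ParaHox gene 24957 bases from Cdx2, stayed at or below 0.342 CPM in all 27 libraries and was lower in the Sam68-labelled line at day 0 (-1.66 ± 0.47, adjusted p = 0.00366, edgeR) without being called there at day 3 or 10. Urad, 7714 bases away, stayed at or below 0.285 CPM. Pdgfrb, a growth factor receptor 8951 bases from Cdx1, was lower in the Sam68-labelled line at day 3 (-0.71 ± 0.15, adjusted p = 0.000691, edgeR) and day 10 (-1.24 ± 0.11, adjusted p = 5.66e-06). Chic1, 25884 bases from Cdx4, was higher there at day 3 (0.35 ± 0.06, adjusted p = 4.09e-05).

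The protein-coding genes most like each member were found by the Pearson correlation of log2(CPM + 1) over the 27 libraries, which share the days and lines and so are not independent. For Cdx2 they were Tollip (r = 0.981), Tspan2 (0.977), Afap1l1 (0.976), Chic2 (0.974) and Fam20b (0.971). For Cdx1 they were Atpaf2 (0.923), Znhit3 (0.906), Slc18b1 (0.903), Sfn (0.898) and Coch (0.897), and for Cdx4 the highest was Ubl3 (0.883). None of these is another Cdx gene: Cdx1 with Cdx2 gave r = -0.486, and Cdx1 with Cdx4 gave 0.718. Within groups the relation of the first pair was the other way. Over the 9 libraries of day 3, taken as deviations from their group means, Cdx1 and Cdx2 gave r = 0.958, Cdx2 and T gave 0.814, and Cdx1 and T gave 0.645. Other genes were closer on this measure, with Sucla2 at 0.994 for Cdx1 and Chst7 at 0.995 for Cdx2. In the Sam68-labelled libraries replicate 1 was the highest of its group in Cdx1 and the lowest in Cdx2. The Cdx1 counts there were 12, 5 and 11, too few to show whether the relation held. Replicate 1 of wild type and of Quaking KO, the libraries with the higher mt-Rnr2 share, lay lowest in Cdx1, Cdx2 and T in their groups, and the part of that share was not tested.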

How the data were processed

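Total RNA of 27 libraries (9 groups of 3) was depleted of ribosomal RNA and sequenced with a stranded kit, per the labels' protocols. The deposited values are raw read counts per gene. Per the submitters' processing notes, reads were handled with STAR 2.5.3a, bcl2fastq 2.17.1.14 and the build GRCm38; the counting program, its strand setting and the annotation were not given in the sources used here. Identifiers were matched without version to GENCODE M21 (51633 of 51826, 99.6%).

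Each day, each line and each interaction was fitted with edgeR 4.0.16 (R 4.3.3): filterByExpr (minimum count 10, minimum total 15), TMM, quasi-likelihood test and Benjamini-Hochberg adjustment over all genes tested. Calls are at adjusted p below 0.05. The SE is the log2 fold change divided by the root of F, and 95% intervals are normal ones. CPM were scaled by TMM over the 27 libraries. Totals of 56461674 to 77257496 counts put 3 counts over a group at 0.0131 to 0.0174 CPM; intervals and floors cover counting error only. The tests were tried on simulated counts. The labels call the replicates biological without saying what was separate, so p-values measure the spread between these samples.

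Same-numbered libraries were taken to deviate together where r was over 0.1 for each of the 3 numbers. Only Quaking KO against wild type at day 3 met this (r = 0.49, 0.21 and 0.15 for replicates 1, 2 and 3). It was read from the data and not the labels, and the block is given there. Other comparisons had such r for some numbers, as in wild type from day 0 to day 3 (0.26, 0.03 and 0.29). The members and gene lists were chosen with earlier results of these data known. Named genes are the Cdx genes, their neighbours, any caudal gene or posterior signal, from each other list the 2 rises and 2 falls of smallest p at most, and the 5 genes most like each member; the octamer was added after reading the sequences. Alternatives were RLE size factors, library totals alone, protein-coding genes alone, no filter, DESeq2 1.42.0, a replicate block, the compared libraries alone and each library left out.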

Additional observations from a re-analysis of the deposited data

Results flagged for a closer look

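In 4 cases a Cdx gene changed between days differently in a KO line and in wild type by the test of the difference itself (edgeR's quasi-likelihood test of the interaction, 12 libraries). Cdx2 rose more from day 0 to day 3 in Quaking KO than in wild type, by 1.36 on the log2 scale (adjusted p = 0.0227), from a lower start. In the Sam68-labelled line the step from day 0 to day 3 differed from that of wild type by -2.62 for Cdx2 (adjusted p = 2.91e-07) and by -3.26 for Cdx1 (adjusted p = 7.28e-06). From day 3 to day 10 the Cdx2 step differed by 3.52 (adjusted p = 1.97e-08). These comparisons share the wild-type libraries of each day.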

How the results depend on the processing

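Of 299 values of Cdx genes under the alternatives other than leaving out a library, 286 kept their direction and their side of the threshold, and none reversed. Cdx2 in the Sam68-labelled line against wild type at day 0 became called with library totals alone (0.44) and among protein-coding genes (0.38). Against Quaking KO at day 0, the Cdx1 call was lost with DESeq2 (0.41) and with the compared libraries alone (0.42), and the Cdx4 call with DESeq2 (-1.22), library totals alone (-0.99) and protein-coding genes (-1.09). The Cdx4 fall of wild type from day 0 to day 3 was lost with DESeq2 (-0.94), library totals alone (-0.83), no filter (-0.91) and the replicate block (-0.94), and that from day 3 to day 10 with DESeq2 (-1.41). The Cdx4 difference between the Sam68-labelled and wild-type steps from day 0 to day 3 became called among protein-coding genes (-2.56). Caudal genes lower in Quaking KO numbered 2 with DESeq2 at day 0, and 11 at day 3 both with no filter and with the block. Genes called for the Quaking KO difference in the step from day 3 to day 10 went from 753 to 1157 with DESeq2 and 1338 with no filter. The cause was not tested. DESeq2 gave no adjusted p for Cdx4 in the differences between steps from day 0 to day 3.

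With 1 library left out, calls changed for Cdx1 in the step from day 0 to day 3 of Quaking KO (-0.10 to 0.54) and wild type (0.11 to 0.69) and between the KO lines at day 0 (0.25 to 0.56); for Cdx2 in the Quaking KO difference of the first step (1.19 to 1.55); and for Cdx4 between the KO lines (-1.55 to -0.56) and against wild type (-1.58 to -1.19) in Sam68-labelled stem cells, in the Sam68-labelled difference of the first step (-4.41 to -2.09), and in wild type in the second step (-1.70 to -1.04) and the first (-1.31 to -0.65). Counts ran from 2 to 4 for the caudal genes lower in Quaking KO at day 0 and from 2 to 8 at day 3. Genes called ran from 749 (without wild type replicate 2) to 1641 for Quaking KO at day 3, from 1399 (without Quaking KO replicate 2) to 3139 at day 10 and from 370 (without wild type day 3 replicate 2) to 1088 for its difference in the second step. Outside Quaking KO against wild type at day 3, no tested pair of groups had same-numbered libraries that deviated together for all 3 numbers, though some numbers did. Of the Cdx calls, the replicate block changed only the Cdx4 fall of wild type from day 0 to day 3, which it ended.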
